A study of Mus musculus with 20 samples.

Results

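The probes described here fell when tamoxifen was added to Zscan4-ERT2 embryonic stem (ES) cells and were lower in cells kept in tamoxifen than in cells from which it had been withdrawn. They were chosen from 42006 distinct 60-base array probes by their measured values, and 329 met the rule. A member had to be well above background in the sample channel on all 4 untreated arrays of days 1 and 2. It had to be lower with tamoxifen than without by at least 0.7 on the log2 scale on day 1 and again on day 2, and lower by at least 0.4 in continued than in withdrawn cells on day 4. These values were log2 ratios of Agilent's processed signals, sample over reference, centred on each array's median. On day 1 and on day 2 the cells with and without tamoxifen lay on different slides. Slide and tamoxifen therefore cannot be told apart in the falls of these days. Of the 26177 probes that met the signal requirement, a further 130 passed the day 1 and day 2 thresholds but not that of day 4. No file pairs a probe with a gene, so members are named by identifier and sequence, and their functions are not known here.

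The cells were a single clone, ES-ZERT number 18, of the V6.5 mouse ES line, which comes from a C57BL/6 x 129/Sv hybrid. Each group carried the same transgene, Zscan4-ERT2 driven by the broadly active CAG promoter, and a neomycin resistance gene used for selection. RNA was measured on 20 arrays with 2 colours, 2 arrays for each of 10 groups. The sample was in the Cy3 channel, and the Cy5 channel held a reference made of RNA from 11 mouse cell lines with ES cell RNA added. No group lacked the transgene and no array had the dyes exchanged.

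All cells grew as a monolayer in ES medium. Day 0 cells (Day0) and untreated cells of day 1 (Tmx-) and day 2 (Tmx--) had no tamoxifen. Continued cells stayed in 200 nM tamoxifen up to day 1 (Tmx+), day 2 (Tmx++), day 3 (Tmx+++) or day 4 (Tmx++++). Withdrawn cells had tamoxifen on day 1 only and were sampled on day 2 (Tmx+-), day 3 (Tmx+--) or day 4 (Tmx+---), after 1, 2 or 3 days in medium without it. There were no untreated cells of days 3 and 4, so a change with time in culture cannot be told apart from a change with the schedule, except between continued and withdrawn cells of the same day.

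Zscan4 genes encode zinc finger proteins with a SCAN domain that are expressed in the early mouse embryo and now and then in single ES cells in culture, where they are known for a role in telomere maintenance. ERT2 is an altered ligand-binding domain of the oestrogen receptor. A protein fused to it is held inactive until tamoxifen binds, and withdrawal is meant to return it to the inactive state.

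The probes on which the results below turn are printed 5′ to 3′ as they stand in the scanner files. The first 4 showed large day 3 differences between continued and withdrawn cells:
Z00035520-1: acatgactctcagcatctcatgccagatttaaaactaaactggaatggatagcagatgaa
Z00015007-1: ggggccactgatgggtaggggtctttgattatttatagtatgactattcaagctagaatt
Z00022800-1: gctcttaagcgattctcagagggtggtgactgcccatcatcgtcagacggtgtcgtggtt
Z00010943-1: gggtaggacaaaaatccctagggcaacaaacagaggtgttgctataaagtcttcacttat
The next 3 rose most from day 2 to day 3 in withdrawn cells, apart from Z00010943-1, which also belongs here:
Z00012342-1: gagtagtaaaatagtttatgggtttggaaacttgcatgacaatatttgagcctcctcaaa
Z00078147-1: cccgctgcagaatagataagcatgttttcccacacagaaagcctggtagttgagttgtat
Z00062183-1: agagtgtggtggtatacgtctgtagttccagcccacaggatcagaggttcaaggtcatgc
The last 3 stayed furthest below day 0, and the capitals in a pair of them mark the 45 bases that both share:
Z00027744-1: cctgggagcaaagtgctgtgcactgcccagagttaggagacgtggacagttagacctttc
Z00002490-1: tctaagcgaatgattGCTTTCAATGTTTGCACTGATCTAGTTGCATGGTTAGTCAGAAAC
Z00074574-1: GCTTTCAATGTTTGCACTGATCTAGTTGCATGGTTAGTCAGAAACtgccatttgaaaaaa

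Between 26199 and 30069 of all probes were well above background on an array, and the correlation of the 2 arrays of a group was between 0.9845 and 0.9954 over the 29414 probes tested. All 329 members were among those tested. From 265 to 329 of them were well above background on an array, with the fewest on the first continued array of day 2, and 242 were so on all 20 arrays. The values below are log2 ratios of sample over reference after normexp background correction with an offset of 50 and loess normalization. The offset shrinks the differences of dim probes. On this scale 148 of the 329 members met the same thresholds. The scales also differ in centring and background handling, and which of these made the other members miss the thresholds was not tested.

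Against day 0, the members as a group lay low in every tamoxifen-treated group and were less low in withdrawn than in continued cells on days 3 and 4. Their median log2 ratio relative to day 0 was 0.01 in untreated cells of day 1 and 0.04 in those of day 2. In continued cells it was -0.66, -0.85, -0.92 and -0.90 on days 1, 2, 3 and 4. In withdrawn cells it was -0.82, -0.74 and -0.39 on days 2, 3 and 4, so withdrawn cells parted from continued cells between days 2 and 4 without reaching day 0. The medians of the 2 arrays of a group differed by at most 0.05. Days 1, 2 and 4 chose the members in part, so these levels are a description.

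**Figure D1:**
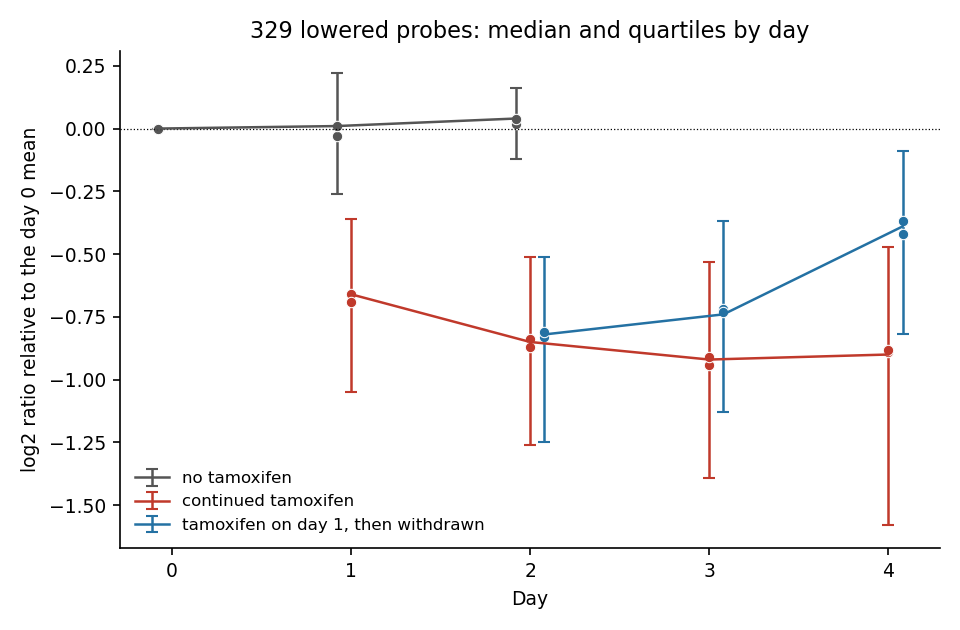
Median log2 ratio of the 329 members relative to the day 0 mean (vertical axis) by day (horizontal axis), for untreated, continued and withdrawn cells; points are the medians of single arrays, and bars span the quartiles of the group means over members. The withdrawn median climbs from -0.82 on day 2 to -0.39 on day 4, while the continued median stays between -0.85 and -0.92 over the same days.

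The spread among members was wide. On day 2, 128 members in withdrawn and 133 in continued cells were more than 2-fold below day 0. By day 4 that number was 64 in withdrawn cells and 147 in continued cells. In withdrawn cells 25 members were above a log2 ratio of -0.2 relative to day 0 on day 2, 39 on day 3 and 117 on day 4, of which 71 were above day 0 itself. Continued cells had 18, 20 and 31 members above -0.2 on those days. The day 4 arrays helped choose the members, and a gap of 0.4 between the schedules was required there, so these day 4 counts were set in part by the choice of members. On day 4, 212 of the 329 members were at or below -0.2 in withdrawn cells.

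The difference between continued and withdrawn cells was tested on day 3, whose arrays had no part in choosing the members and lay on a single slide. Withdrawn arrays came before continued arrays on that slide, and in the same order on the day 4 slide. Position on the slide and schedule therefore cannot be told apart, on day 3 or in the day 4 difference that the rule used. Of the 329 members, 74 were lower in continued cells (22.5%; limma, Benjamini-Hochberg adjusted p under 0.05 over all probes tested), against 0.367% of the 29414 probes tested. None of the members was called higher (1 at an unadjusted p under 0.05), against 0.153% of all probes. The median log2 difference of the members was -0.20, with quartiles of -0.32 and -0.09 and a range from -0.99 to 0.19, against a median of 0.01 for all probes. The difference was below 0 at 306 members. At 248 members both continued arrays were below both withdrawn arrays, as at 19.3% of all probes.

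The called members were bright enough to be measured on both sides, since all 74 were well above background on all 4 day 3 arrays, as were 275 of the members. Most differences were small, and 4 of the called members reached 1.5-fold. The count rested on each of the 4 arrays: leaving out a withdrawn array gave 26 (the first) or 20 (the second), and leaving out a continued array gave 9 (the first) or 44 (the second). It was 46 with median centring in place of loess, 28 with Agilent's processed signals and 7 with the local backgrounds as given. Over all probes, 50, 29 and 7 were called lower in these settings, against 108 in the fit reported above. The median difference of the members stayed between -0.36 and -0.18 in all alternatives run.

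**Figure D2:**
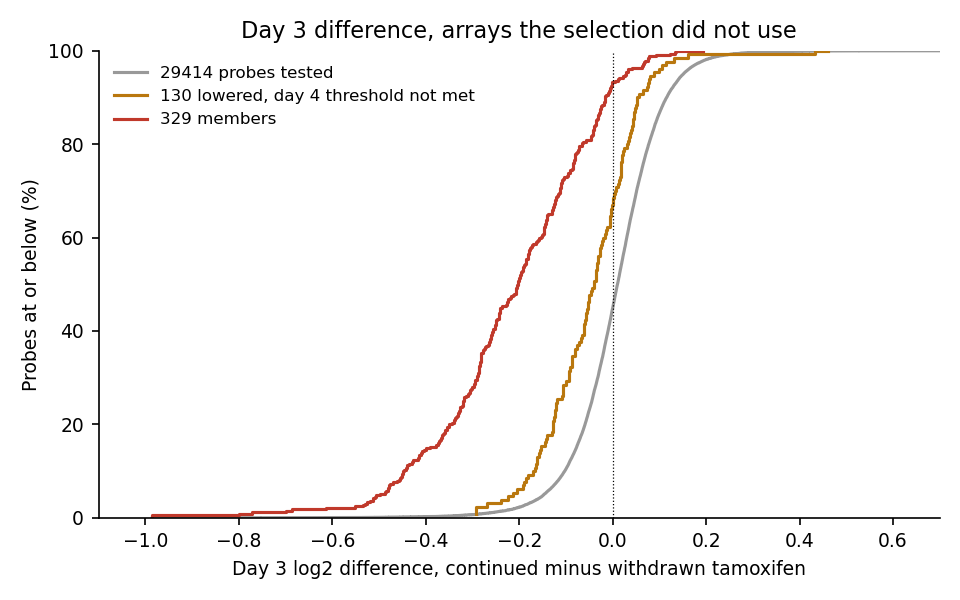
Cumulative share of probes (vertical axis, percent) at or below a day 3 log2 difference of continued minus withdrawn cells (horizontal axis), for all 29414 probes tested, the 130 lowered probes that missed the day 4 threshold and the 329 members; each value is a difference of means over 2 arrays a group. The members' curve lies to the left of the others, with a median of -0.20.

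The 130 probes that had fallen on days 1 and 2 but missed the day 4 threshold were set beside the members. On day 3, 0 of the 130 were called lower in continued than in withdrawn cells by limma. At an unadjusted limma p under 0.05 there were 14, against 188 of the 329 members. The share of all probes at this unadjusted limit is not given here. Of all probes 0.367% were called, a share at which few calls would be found among 130. Their median difference was -0.04, and 86 of the 130 had a difference below 0. In withdrawn cells of day 3 they had a median of -0.50 relative to day 0 and 105 of them were called lower than day 0, against -0.74 and 287 of 329 for the members and 19.2% of all probes. Both lists were chosen by values of other days, and their difference was not tested as such.

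Among the members with the largest day 3 falls, Z00035520-1 was at -1.58 and -1.52 (log2 sample over reference) on the withdrawn arrays and at -2.40 and -2.30 on the continued arrays. Day 0 had been at -0.08 and -0.34. Continued cells were 1.74-fold below withdrawn cells (log2 -0.80, SE 0.0701, limma adjusted p = 6.59e-05). Both withdrawn arrays thus lay between the day 0 and the continued arrays. On day 4 withdrawn cells were at -1.0 and -1.01 and continued cells at -2.79 and -2.80.

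Z00015007-1 was at 0.00 and 0.02 on the withdrawn and at -0.65 and -0.73 on the continued arrays of day 3, with day 0 at 1.47 and 1.35. The difference was 1.62-fold (log2 -0.70, SE 0.0842, limma adjusted p = 0.00138). By day 4 withdrawn cells, at 1.65 and 1.60, had passed the day 0 level, and continued cells were at -0.55 and -0.52. The day 4 arrays helped choose this member, and on the day 3 arrays, which the rule did not use, withdrawn cells were still below day 0 (log2 -1.40, SE 0.0842, limma adjusted p = 7.76e-10).

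Z00022800-1 was at -1.33 and -1.29 on the withdrawn and at -2.05 and -1.95 on the continued arrays of day 3, a 1.61-fold difference (log2 -0.69, SE 0.0666, limma adjusted p = 0.000148). Day 0 was at -0.30 and -0.48. On day 4 withdrawn cells were at -0.13 and -0.07, above both day 0 arrays, and continued cells at -1.54 and -1.42, again on arrays the rule used. On day 3 withdrawn cells were still below day 0 (log2 -0.92, SE 0.0666, limma adjusted p = 7.42e-09).

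Z00010943-1 had the largest day 3 difference and did not follow the same course. Its withdrawn arrays were at -1.20 and -1.48 and its continued arrays at -2.35 and -2.30 on day 3 (1.98-fold; log2 -0.99, SE 0.136, limma adjusted p = 0.00354; log2 -1.84 with Agilent's processed signals). On day 4 the withdrawn arrays, at -1.79 and -1.76, were below those of day 3. Untreated cells varied too, at 2.20 and 2.48 on day 1 against 0.80 and 0.87 on day 0. The day 3 call was lost without the first withdrawn array (adjusted p = 0.0559), without the first continued array (adjusted p = 0.0604) and with the local backgrounds as given (adjusted p = 0.36), and held in the other alternatives run.

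Z00074452-1 and Z00009923-1 completed the 6 largest called falls. Z00074452-1 was at 1.36 and 1.48 on the withdrawn and at 0.87 on both continued arrays (log2 -0.55, SE 0.0998, limma adjusted p = 0.0159). Its withdrawn cells of day 3 were not called different from day 0 (log2 -0.24, limma adjusted p = 0.0621). Without tamoxifen it also varied, at 1.62 and 1.71 on day 0, 0.07 and 0.38 on day 1 and 1.64 and 1.80 on day 2. Z00009923-1 was at 0.07 and 0.26 on the withdrawn and at -0.38 and -0.36 on the continued arrays (log2 -0.54, SE 0.0883, limma adjusted p = 0.00907). In it both schedules fell again by day 4, to -0.66 and -0.71 in withdrawn and -1.92 and -2.11 in continued cells. Both day 3 calls were lost with Agilent's processed signals (adjusted p = 0.15 and 0.11) and with the local backgrounds as given (adjusted p = 0.226 and 0.264). That of Z00074452-1 was also lost without any of the 4 day 3 arrays, and that of Z00009923-1 without the second withdrawn or either continued array. The calls of Z00035520-1 and Z00022800-1 held in all alternatives run, and that of Z00015007-1 in all but the local backgrounds as given (adjusted p = 0.119).

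At the other end, Z00063179-1, Z00049697-1 and Z00029188-1 had the smallest day 3 differences among members well above background on both withdrawn arrays, each 0.00 at 2 decimals. For Z00063179-1 the 95% interval of the log2 difference ran from -0.21 to 0.20, and withdrawn cells were at -2.78 and -2.79, below both withdrawn arrays of day 2, at -2.49 and -2.43. For Z00049697-1 the interval ran from -0.25 to 0.25, with withdrawn arrays at 0.26 and 0.43 and continued arrays at 0.33 and 0.35. For Z00029188-1 it ran from -0.30 to 0.29, with withdrawn arrays that differed by more than in the other members named, at -0.12 and 0.57. In the sample channel alone its difference was -0.79 (adjusted p = 0.0442), whereas the other alternatives run left it uncalled. These members had been lower than day 0 in withdrawn cells of day 3 (log2 -0.87, -1.08 and -0.54, limma adjusted p = 1.66e-06, 1.33e-06 and 0.00493).

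**Figure D3:**
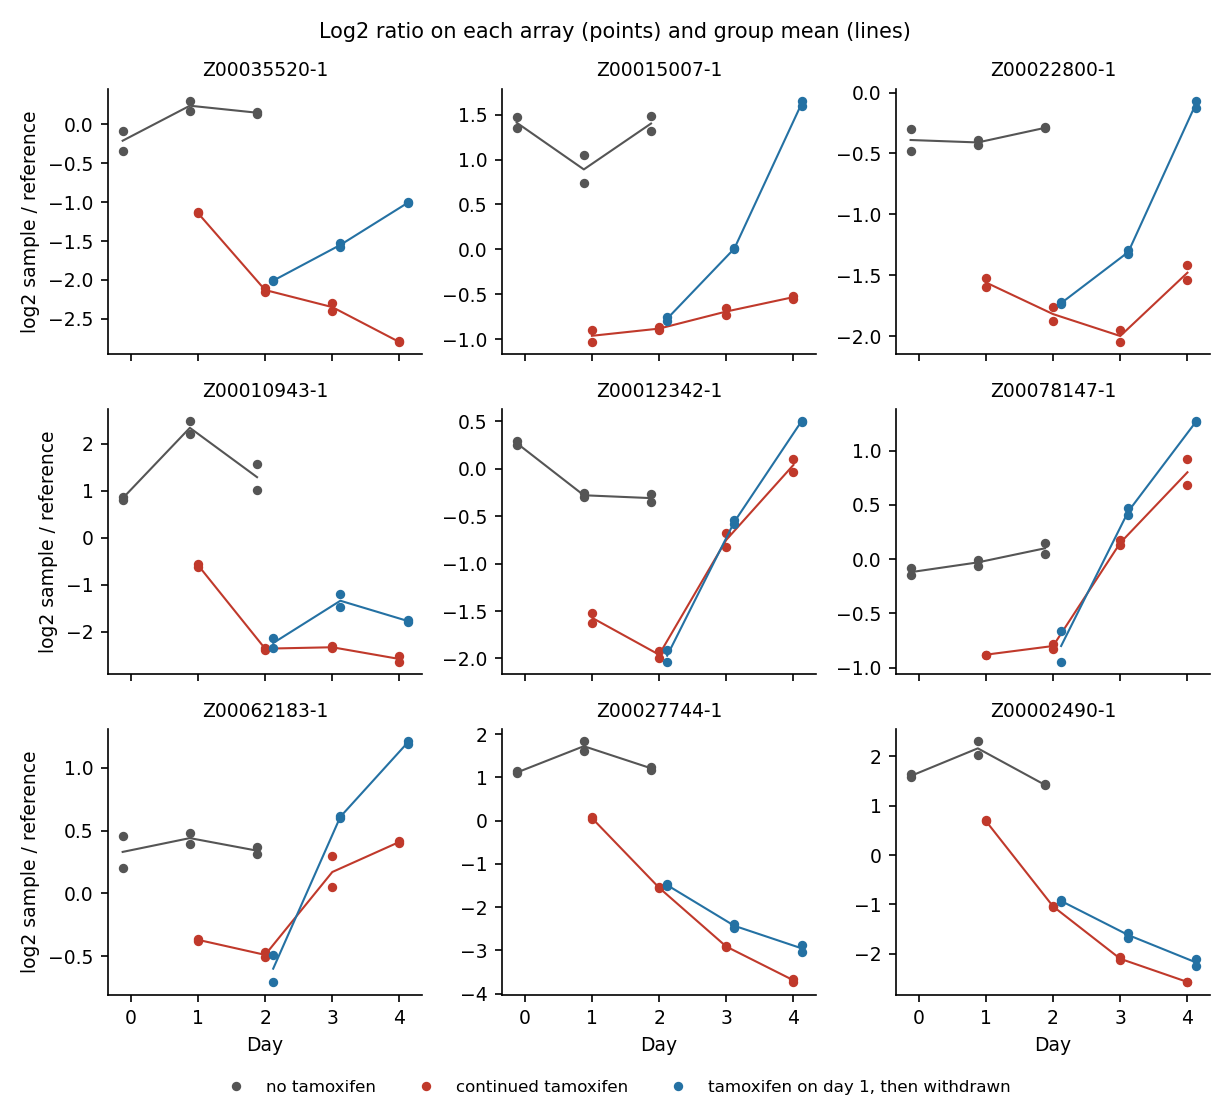
Log2 ratio of sample over reference (vertical axes, a scale for each panel) by day (horizontal axes) for 9 members; points are single arrays and lines join group means of untreated, continued and withdrawn cells. The top row and Z00010943-1 show large day 3 differences, Z00012342-1, Z00078147-1 and Z00062183-1 rise in both schedules, and Z00027744-1 and Z00002490-1 fall further in both.

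The course after withdrawal was followed from day 2 to day 3 in withdrawn cells, again on arrays the rule did not use. Of the 329 members, 92 rose (28.0%, against 13.7% of all probes) and 25 fell (7.60%, against 11.7% of all probes; limma adjusted p under 0.05). The median change of the members was 0.06, against 0.00 for all probes. The risers had a median change of 0.39 and the members that fell one of -0.38. Day 2 and day 3 lay on different slides scanned in different sessions, so slide and day cannot be told apart here, and with the local backgrounds as given 43 members rose.

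The same days were set side by side in continued cells, as a description because the continued day 2 arrays served in the rule. Of the 92 risers, 66 were higher on day 3 than on day 2 in continued cells too, with a median change of 0.10. All 25 members that fell in withdrawn cells were also lower in continued cells, with a median change of -0.58. The change was more positive in withdrawn than in continued cells at 277 of the 329 members. This count uses the day 3 arrays on which the difference between the schedules was below 0 at 306 members. It is therefore not a separate result, and its share over all probes was not computed.

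Z00012342-1 had the largest rise. Its withdrawn arrays were at -2.04 and -1.91 on day 2 and at -0.54 and -0.58 on day 3 (log2 1.42, SE 0.0668, limma adjusted p = 7.02e-10). Continued cells moved with them, from -1.99 and -1.92 to -0.83 and -0.68, and the day 3 difference between the schedules was not called (log2 -0.20, adjusted p = 0.292). Day 0 was at 0.25 and 0.29. By day 4 withdrawn cells were at 0.49 and 0.50 and continued cells at 0.10 and -0.03.

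Z00078147-1 was at -0.95 and -0.66 on the withdrawn arrays of day 2 and at 0.41 and 0.47 on those of day 3 (log2 1.24, SE 0.0818, limma adjusted p = 3.83e-08). Continued cells went from -0.83 and -0.78 to 0.13 and 0.18. On day 3 both schedules were therefore above the day 0 arrays, at -0.15 and -0.08. Withdrawn cells were 1.47-fold above day 0 (log2 0.56, SE 0.0818, adjusted p = 3.4e-05) and continued cells 1.21-fold above it (log2 0.27, SE 0.0818, adjusted p = 0.0124).

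Z00062183-1 rose from -0.71 and -0.49 to 0.62 and 0.60 (log2 1.21, SE 0.0873, limma adjusted p = 9.61e-08), and continued cells reached 0.05 and 0.30. Its day 3 difference between the schedules passed the test (log2 -0.44, SE 0.0873, adjusted p = 0.0303). The fourth, Z00010943-1, rose from -2.34 and -2.13 to -1.20 and -1.48 (log2 0.90, SE 0.136, limma adjusted p = 0.00014), while continued cells were at -2.36 and -2.33 (group means) on these days. Of the 4 strongest risers in withdrawn cells, 3 thus also rose by over 0.5 in continued cells, and no other member did.

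How far the members were from the starting culture was tested against day 0. The rule had chosen them as lower in tamoxifen than in untreated cells, whose medians lay near day 0 (0.01 on day 1 and 0.04 on day 2). The counts below were thus set in part by the choice of members. In withdrawn cells of day 2, 304 members were lower than day 0 (92.4%, against 15.8% of all probes), with a median log2 difference of -0.82. In withdrawn cells of day 3, 287 were lower (87.2%, against 19.2%) with a median of -0.74, and 3 were higher, against 20.5% of all probes. In continued cells of day 3, 310 were lower (94.2%, against 20.6%), with a median of -0.92. The comparisons share the day 0 arrays and 283 members were lower in withdrawn cells of both days. All 3 span slides, and the day 3 arrays were scanned in a later session than those of day 0, so slide and group cannot be told apart. Day 0 shared its slide with the untreated day 1 arrays of the rule. Withdrawn cells of day 2 shared theirs with the continued day 2 arrays of the rule.

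Of the 74 members called lower in continued than in withdrawn cells on day 3, 68 were still called lower than day 0 in withdrawn cells. A further count was of members called neither lower nor higher than day 0 in withdrawn cells of day 3. There were 39, and 24 of these were called lower than day 0 in continued cells of day 3, as were 20.6% of all probes. Of all probes, 19.2% were called lower and 20.5% higher in withdrawn cells of day 3, so most were called neither. Among the 253 members that lay at least 0.5 below day 0 in continued cells of day 3, the day 3 difference between the schedules was a median of 19.4% of the loss, with quartiles of 12.8% and 28.9%. On day 4, whose arrays helped choose the members, it was 47.4% of the loss in 240 members. These shares are descriptions.

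**Figure D4:**
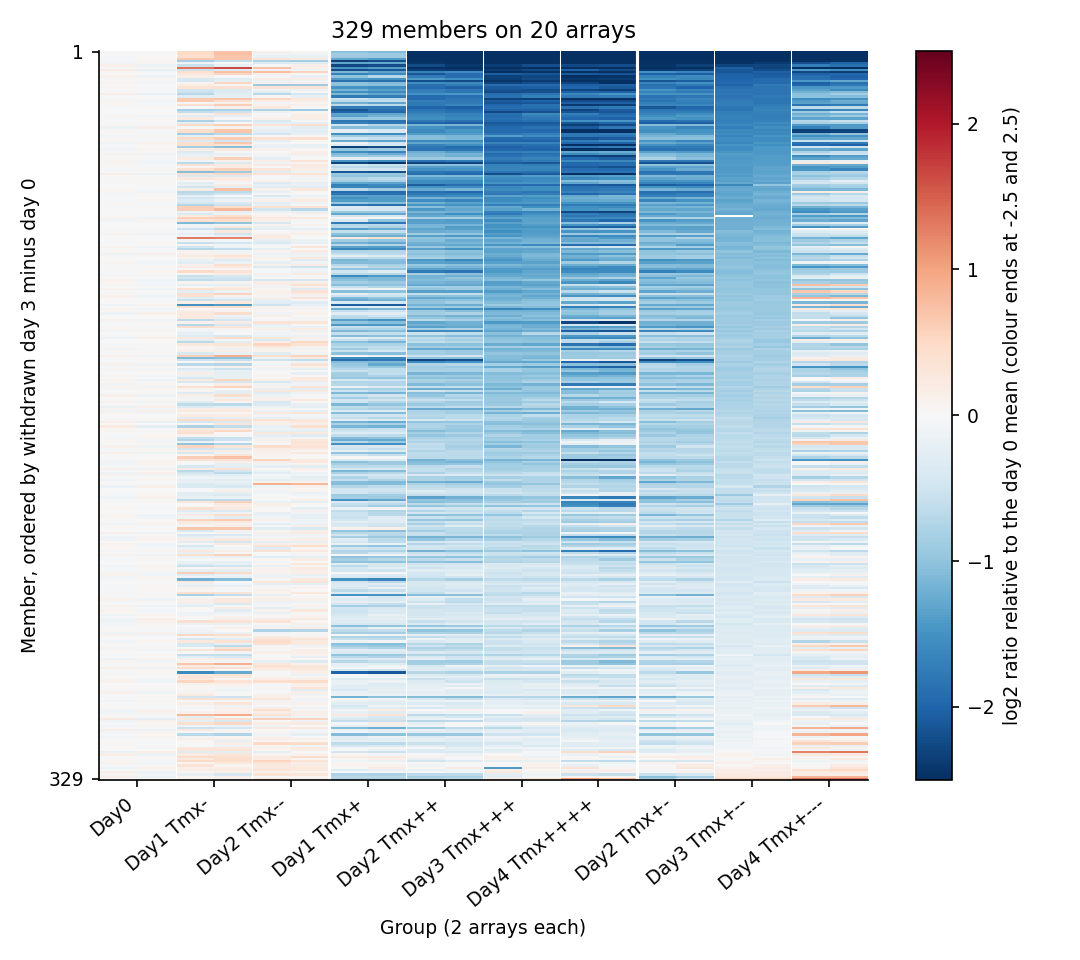
Log2 ratio of each of the 329 members (rows, ordered by withdrawn day 3 minus day 0) relative to its day 0 mean on each of the 20 arrays (columns, 2 for each group); blue is below and red above day 0, colours end at -2.5 and 2.5, and missing values are left blank. The rows at the top are low in all tamoxifen-treated groups, and the withdrawn day 4 columns are paler than the continued ones.

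The members furthest below day 0 went on falling after withdrawal. Z00027744-1 was at 1.14 and 1.09 on day 0 and in withdrawn cells at -1.52 and -1.46 on day 2, at -2.47 and -2.39 on day 3 and at -3.03 and -2.88 on day 4. On day 3 it was 11.6-fold below day 0 in withdrawn cells (log2 -3.54, SE 0.07, limma adjusted p = 1.37e-15) and 16.2-fold below it in continued cells (log2 -4.02, adjusted p = 2.15e-16). The fall from day 2 to day 3 in withdrawn cells also passed the test (log2 -0.94, SE 0.07, adjusted p = 1.39e-07). It met the rule because continued cells were lower still, at -2.93 and -2.89 on day 3 and -3.65 and -3.74 on day 4. It was well above background on all 20 arrays.

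Z00002490-1 and Z00074574-1, which share 45 bases, gave nearly the same values. Z00002490-1 was at 1.57 and 1.64 on day 0 and at -1.57 and -1.67 on the withdrawn arrays of day 3 (9.33-fold lower; log2 -3.22, SE 0.0713, limma adjusted p = 3.09e-15). Z00074574-1 was at 1.55 and 1.54 on day 0 and at -1.65 and -1.73 on the withdrawn arrays (9.40-fold lower; log2 -3.23, SE 0.0665, adjusted p = 1.37e-15). On the continued arrays of day 3 they were at -2.13 and -2.07 and at -2.14 and -2.09, which was lower than in withdrawn cells by the test (log2 -0.48 and -0.43, adjusted p = 0.00445 and 0.00543). In withdrawn cells both fell from day 2 to day 3 (log2 -0.69 and -0.76, limma adjusted p = 3.41e-06 and 6.71e-07), and on day 4 they were at -2.17 and -2.26 (group means). Of the 25 members that fell from day 2 to day 3 in withdrawn cells, 6 were lower again on day 4, these 3 included.

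The members highest relative to day 0 in withdrawn cells of day 3 were Z00078147-1, Z00062183-1 (log2 0.28, SE 0.0873, limma adjusted p = 0.0166) and Z00034244-1. The last was at 0.06 and -0.09 on day 0, at -0.58 and -0.45 in withdrawn cells of day 2 and at 0.23 and 0.19 in those of day 3 (log2 0.22 against day 0, SE 0.0747, adjusted p = 0.0248). Its continued arrays of day 3, at -0.29 and -0.12, stayed below day 0. The calls above day 0 of Z00062183-1 and Z00034244-1 were lost in several alternatives: with Agilent's processed signals (adjusted p = 0.111 and 0.171), in the sample channel alone (adjusted p = 0.189 and 0.345) with the local backgrounds as given (adjusted p = 0.106 and 0.159) and without the second day 0 array (adjusted p = 0.251 and 0.216). They were lost too without the first (adjusted p = 0.0783 and 0.117) or the second withdrawn day 3 array (adjusted p = 0.0588 and 0.0686), and that of Z00034244-1 in the deposited matrix values (adjusted p = 0.134).

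Among the members, 11 pairs shared a run of 25 to 53 bases. These 22 probes may not be independent of each other, and whether the probes of a pair measure the same transcript was not tested. Within a pair the day 3 differences had the same sign in all 11 and differed by a median of 0.05 and at most 0.16. Since the difference was below 0 at 306 of the 329 members, a shared sign was likely for any pair of them. The pair Z00042952-1 and Z00074150-1, whose 26 shared bases are in capitals below, showed a called fall in each (log2 -0.48 and -0.45, limma adjusted p = 0.00296 and 0.00605):
Z00042952-1: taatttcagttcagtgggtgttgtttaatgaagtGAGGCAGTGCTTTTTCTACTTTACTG
Z00074150-1: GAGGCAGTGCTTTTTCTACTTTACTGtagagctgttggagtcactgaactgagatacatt
Z00047456-1 and Z00064867-1, which share 31 bases, did so too (log2 -0.39 and -0.36, adjusted p = 0.0106 and 0.00744). Z00004889-1 and Z00075322-1, with 32 shared bases, fell on different sides of the threshold (log2 -0.61 and -0.46, adjusted p = 0.0576 and 0.00543) while both values pointed the same way. The other pairs were Z00000257-1 with Z00058876-1, Z00028257-1 with Z00074431-1, Z00035221-1 with Z00075197-1, Z00055052-1 with Z00076614-1, Z00059643-1 with Z00077076-1, Z00068950-1 with Z00077459-1 and Z00071847-1 with Z00073883-1.

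A further 7 members shared a run of 20 to 54 bases with a tested probe that is no member. Of the partners, 6 had missed the day 1 threshold, with values of -0.65 to -0.52 on the scale of the rule, and 1 the signal requirement. Among the 6, Z00025219-1 also missed the day 2 threshold (-0.59) and Z00023708-1 that of day 4 (-0.34). On day 3 the partner's difference had the sign of the member's in all 7, and the members and partners differed by a median of 0.06 and at most 0.15. Z00078143-1, for instance, had a log2 difference of -0.28 and its partner Z00053931-1 one of -0.24, and neither was called.

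**Figure D5:**
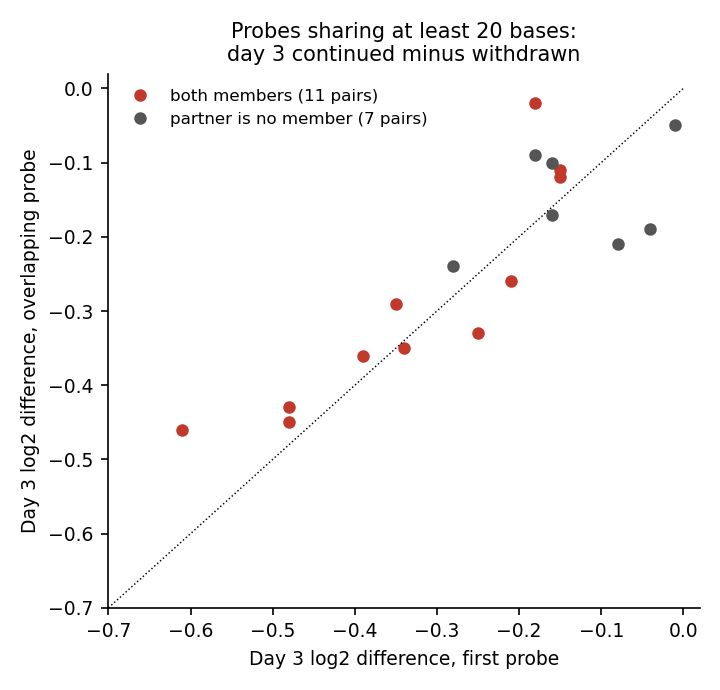
Day 3 log2 difference of continued minus withdrawn cells for a probe (horizontal axis) and for a probe that shares at least 20 bases with it (vertical axis); red points are 11 pairs of members, grey points 7 pairs of a member and another probe, and the dotted line marks equal values. All 18 pairs lie below 0 on both axes, and 306 of the 329 members had a day 3 difference below 0.

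The level before tamoxifen is a description, because the rule admitted only probes with signal in untreated cells and then required a fall, which the list of all probes tested did not have to meet. On both day 0 arrays 78 of the 329 had a log2 ratio above 1 (23.7%, against 6.25% of all probes tested) and 38 one below -1 (11.6%, against 12.0%). The median was 0.38, against 0.00 for all probes, and single members ranged from -3.56 to 3.47. The reference itself holds ES cell RNA, and a dye effect on a probe does not cancel in this ratio. On day 3, 25 of the 78 high members were called lower in continued than in withdrawn cells (median difference -0.28), as were 7 of the 38 low ones (-0.23) and 42 of the remaining 213 (-0.18), and these shares were not tested against each other.

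The median GC content was 45.0% for members and for all probes tested, with upper quartiles of 48.3% and 51.7%. The letters AATAAA, the usual polyadenylation signal, were present on the printed strand of 28 members (8.51%) and of 7.50% of all probes tested, and on the opposite strand of 2.74% and 3.06%. No member matched a RefSeq promoter window or miRNA hairpin (build GRCm38.p6) on the same strand. Only 128 of all probes did, a number at which few or no matches would be found among the members. Z00070005-1 matched on the opposite strand, at chr19:5970271-5970330, within the promoter window of the predicted gene Gm31719, and is not assigned to that gene. Marker genes of ES cells and of other cell types could therefore not be looked up, so the identity of the cells was not checked in these data. A lower signal may reflect fewer cells of a kind or less RNA per cell, which cannot be told apart in bulk RNA.

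The thresholds cut through a continuous range. On the scale of the rule, Z00039951-1 was just inside the day 1 threshold at -0.7006 and Z00073873-1 just outside it at -0.6956. For day 2 the values were -0.7154 for Z00044530-1 and -0.6901 for Z00050150-1. Z00044530-1 was well above background on neither continued array of day 2 and on 1 tamoxifen array of day 1. On the normexp and loess scale its differences were -0.25 on day 1 and -0.20 on day 2. For day 4 they were -0.4003 for Z00076612-1 and -0.3973 for Z00045503-1. With thresholds of 0.75 times the size 564 probes would have been members, and with thresholds of 2 times the size 46.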

How the data were processed

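RNA was measured on 20 arrays with 2 colours. The scanner files hold linear intensity values and flags (other), which per the file headers came from Feature Extraction 9.5.1.1 (Agilent). The deposited series matrix holds log10 values, of unstated centring. They were converted to log2 as an alternative.

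Members and lists were chosen with earlier results of these data known. The rule used Agilent's processed signals. Tests used mean signals with normexp (offset 50), loess within arrays and limma 3.58.1 in R 4.3.3. Local backgrounds above 10 times the channel median (6 spots in each channel) were replaced by the median, a choice made after seeing the data. Control spots had weight 0, 91 values of non-uniform spots were missing, and spots of a probe were averaged. The 29414 probes kept were those that some group had well above background on its 2 arrays. A group-means model was fitted to all 20 arrays, with 10 residual and 6.94 prior degrees of freedom, and adjusted p-values (Benjamini-Hochberg) cover all probes tested. The fit was tested on simulated data. Folds are on the scale with the offset added. Only arrays that did not enter the rule were tested.

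Named members are the 6 largest called day 3 falls with arrays that did not overlap, the 3 smallest day 3 differences, the 4 largest called rises from day 2 to day 3, the 3 furthest below and 3 highest against day 0, those at the thresholds, and those sharing sequence. The numbers of arrays limit the precision, and the labels name no separate cultures for them: p-values reflect the spread between the arrays of a group, which may be only technical.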

Additional observations from a re-analysis of the deposited data

How the results depend on the processing

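The count of members called lower on day 3 in continued than in withdrawn cells (74) was the least stable result. It was 7 with the local backgrounds as given, 28 with Agilent's processed signals, 46 with median centring and 4 when 1.5-fold was also required, and between 9 and 44 when a day 3 array was left out. It was between 50 and 86 in the other alternatives, the deposited matrix, which holds 225 of the members, included. Over all probes these calls fell from 108 to 7 (backgrounds as given), 29 (processed signals), 50 (median centring) and 4 (1.5-fold required). The members that rose from day 2 to day 3 in withdrawn cells (92) numbered 43 with the local backgrounds as given, 19 with 1.5-fold also required and 62 to 78 without an array. Against day 0, the counts without an array were 295 to 299 (withdrawn day 2), 272 to 279 (withdrawn day 3) and 297 to 305 (continued day 3), and all other alternatives stayed within 1.5 times the reported counts. With 1.5-fold also required, the counts against day 0 fell to 229, 192 and 233, in the same order. No called direction of a named member reversed. Without the first untreated day 1 array, an alternative chosen after seeing the data, the day 3 count was 96.

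With the replicate number as a block (replicate block), the counts were 75, 91, 305, 287 and 309, in the order day 3, day 2 to 3, and withdrawn day 2, withdrawn day 3 and continued day 3 against day 0. Replicate differences of the 45 pairs of groups correlated between -0.288 and 0.284, so the numbers were not taken to pair arrays. The slide as a random block could not be fitted, since each slide holds whole groups. With normexp and loess values in the rule, 152 probes would be members. For probes near background the signal over background, not the test, limits what can be seen.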
